A study of Mus musculus with 4 samples.

Results

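Genes for splicing factors and heterogeneous nuclear ribonucleoproteins were examined for H3K27ac, an acetylation of histone H3 at active promoters and enhancers, in mouse embryonic stem cells (mESCs) grown with or without folate. The members were all peaks in the deposited table that lay nearest to a protein-coding gene whose symbol began with Srsf, Hnrnp, Snrp, Sf3a, Sf3b, Prpf, U2af or Lsm, with a digit after Srsf, Prpf and Lsm. This rule gave 21 peaks at 20 genes, of 4088 peaks in the table and 2471 peaks nearest to protein-coding genes. They fell into 3 families, with 4 peaks at serine- and arginine-rich (SR) protein genes, 10 at hnRNP genes and 7 at genes of small nuclear ribonucleoproteins (snRNPs) and their partners.

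Splicing removes introns from pre-mRNA in the spliceosome, which is built from snRNPs, each a small nuclear RNA bound by proteins. SR proteins bind exonic enhancers and promote the choice of nearby splice sites, while hnRNPs coat nascent transcripts and often repress splice sites. The snRNPs, RNA and proteins together, recognise splice sites and the branch point and form the catalytic core. These genes are active in nearly all cells, and their promoters are typically rich in CpG.

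Sv129 mESCs were cultured in folate-deficiency medium with 0 mg/L folate (FA0) or in control medium with 4 mg/L folate (FA4). Both conditions used the same cell line, grown with fetal bovine serum, and the labels name no further agent. Each condition gave 1 immunoprecipitated (IP) library and 1 input library, 4 libraries in all. There were no replicates, so no difference below has a replicate check or a p-value over samples, and differences between gene groups were not tested.

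Each peak is a region of less H3K27ac in the FA0 IP library than in the FA4 IP library. The table does not state this order. It was inferred from the study's name for the same promoter peaks, which sets FA4 against FA0, and if it were the reverse then every difference below would be reversed too. The study's text also speaks of H3K27ac gained without folate, which this table cannot show when read in that order. A gene with no peak may therefore have been equal, higher in FA0, or too weakly marked to be called. The pileup is the number of FA4 fragments stacked at the peak summit, the FA0 background is the peak caller's local estimate from the FA0 library, and the fold enrichment runs FA4 over FA0, each with 1 added. The background was computed from the fold and the pileup, and the deposited p-values of the promoter peaks match a Poisson tail at that background. It can come from a window wider than the summit, so the fold does not give the ratio of both summit levels. Unlike the pileup, the background is not a whole number of fragments, so it is not a raw FA0 count. Over the whole table the pileup ran between 8 and 265 with a median of 12, and the lowest −log10 q was 1.31. The depth of each library is not stated in the values used. A difference in IP efficiency, or in depth beyond any scaling by the peak caller, cannot be told apart from a difference between the media. Of the markers of embryonic stem cells, 7 of 10 had a promoter peak, among them Pou5f1, Nanog and Sox2, against 4.73% of all protein-coding genes. Esrrb, Klf4 and Tfcp2l1 had none. No promoter peak was listed at 8 feeder fibroblast, 7 mesoderm and endoderm, or 4 neural progenitor markers. A listed peak shows only that H3K27ac was present in FA4 and lower in FA0, so absence from the list does not give the level of a marker.

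The promoters of the 6 member peaks with the highest −log10 q are shown because the strongest differences between FA0 and FA4 lay beside them, and that of Prpf38b because its peak covered the whole window. Each runs from 250 bp before to 50 bp after a RefSeq start on GRCm38.p6, the assembly of mm10, and is written along the gene's own strand. Capitals mark matches on either strand to the GC box, with the letters GGGCGG, the CCAAT box, the E box of Myc and Usf, with the letters CACGTG, the ETS motif CCGGAAGT, the Nrf1 motif GCATGCGC, the Yy1 motif AAGATGGCG and the TATA box, with the letters TATAAA. Snrpa has 2 RefSeq starts beside its peak, with windows at chr7:27196222-27196521 and, for the downstream start, chr7:27195711-27196010, both on the minus strand. Of the others, Srsf5 lies at chr12:80945249-80945548 on the plus strand, Hnrnpa2b1 at chr6:51469796-51470095 on the minus strand and Srsf1 at chr11:88047123-88047422 on the plus strand. Prpf8 lies at chr11:75486527-75486826 on the plus strand, Srsf3 at chr17:29032410-29032709 on the plus strand and Prpf38b at chr3:108911680-108911979 on the minus strand.
Snrpa: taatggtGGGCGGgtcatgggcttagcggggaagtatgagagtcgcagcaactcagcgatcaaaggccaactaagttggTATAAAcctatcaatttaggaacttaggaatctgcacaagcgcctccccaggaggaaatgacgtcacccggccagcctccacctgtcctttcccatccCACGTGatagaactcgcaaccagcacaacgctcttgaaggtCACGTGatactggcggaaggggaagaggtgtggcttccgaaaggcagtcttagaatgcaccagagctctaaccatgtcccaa
Snrpa downstream start: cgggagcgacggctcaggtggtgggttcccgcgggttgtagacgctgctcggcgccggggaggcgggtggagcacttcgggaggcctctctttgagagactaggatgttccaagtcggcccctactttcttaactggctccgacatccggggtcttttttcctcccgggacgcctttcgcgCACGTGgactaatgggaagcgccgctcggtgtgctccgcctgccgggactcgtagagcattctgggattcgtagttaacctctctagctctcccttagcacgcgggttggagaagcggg
Srsf5: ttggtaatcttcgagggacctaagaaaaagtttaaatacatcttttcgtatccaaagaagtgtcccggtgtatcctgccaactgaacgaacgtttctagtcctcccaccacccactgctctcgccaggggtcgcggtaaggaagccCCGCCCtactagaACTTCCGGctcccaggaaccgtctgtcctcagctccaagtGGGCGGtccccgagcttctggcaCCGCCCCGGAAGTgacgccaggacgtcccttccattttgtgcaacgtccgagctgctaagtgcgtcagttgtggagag
Hnrnpa2b1: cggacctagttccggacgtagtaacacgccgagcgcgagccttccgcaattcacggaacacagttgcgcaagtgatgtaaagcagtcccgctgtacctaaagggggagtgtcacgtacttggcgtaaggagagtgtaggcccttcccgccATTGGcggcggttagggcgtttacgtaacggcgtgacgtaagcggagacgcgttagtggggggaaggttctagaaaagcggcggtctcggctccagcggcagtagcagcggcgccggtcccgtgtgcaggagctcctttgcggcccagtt
Srsf1: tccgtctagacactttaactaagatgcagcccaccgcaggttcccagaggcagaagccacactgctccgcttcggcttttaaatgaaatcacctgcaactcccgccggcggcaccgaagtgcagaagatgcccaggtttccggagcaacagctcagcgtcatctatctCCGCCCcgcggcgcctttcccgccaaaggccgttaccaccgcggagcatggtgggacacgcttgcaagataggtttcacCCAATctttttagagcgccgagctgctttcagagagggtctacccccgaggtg
Prpf8: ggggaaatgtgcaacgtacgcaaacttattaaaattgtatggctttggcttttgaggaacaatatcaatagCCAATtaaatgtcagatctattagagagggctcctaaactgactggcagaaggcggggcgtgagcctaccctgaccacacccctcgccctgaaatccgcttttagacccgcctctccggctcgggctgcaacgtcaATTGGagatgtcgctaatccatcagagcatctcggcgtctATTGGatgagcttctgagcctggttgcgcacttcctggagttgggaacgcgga
Srsf3: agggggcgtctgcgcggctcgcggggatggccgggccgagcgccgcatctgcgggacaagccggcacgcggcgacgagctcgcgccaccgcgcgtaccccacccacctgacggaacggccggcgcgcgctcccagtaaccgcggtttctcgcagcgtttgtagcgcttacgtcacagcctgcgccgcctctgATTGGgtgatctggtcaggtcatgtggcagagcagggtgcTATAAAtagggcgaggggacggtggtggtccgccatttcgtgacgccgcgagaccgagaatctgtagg
Prpf38b: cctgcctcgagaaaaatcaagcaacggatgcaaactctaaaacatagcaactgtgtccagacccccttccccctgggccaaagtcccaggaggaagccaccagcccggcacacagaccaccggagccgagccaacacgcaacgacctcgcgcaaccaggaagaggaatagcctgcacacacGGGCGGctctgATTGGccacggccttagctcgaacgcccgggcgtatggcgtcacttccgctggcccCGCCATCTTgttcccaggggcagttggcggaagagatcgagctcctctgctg

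In the first Snrpa window the E box occurred 2 times, with first letters 73 and 32 bp before the start, beside a GC box and a TATA box further upstream. Srsf5 held 3 GC boxes and 2 ETS matches, and the last of each shared 1 letter. Prpf8 held 3 CCAAT boxes, the last beginning 3 bp before the start. Srsf1 had a GC box and a CCAAT box, Srsf3 a CCAAT box and a TATA box, and Hnrnpa2b1 a single CCAAT box in reverse. Prpf38b had a GC box, a reverse CCAAT box and a reverse Yy1 match that crossed the start. The Snrpa peak lay between the 2 RefSeq starts. It began 134 bp downstream of the first and missed that window, and it overlapped the window of the downstream start by 127 bp, with its summit at −200 bp from that start. That window held a single E box, 69 bp before the start. The Srsf5 peak began 77 bp downstream and missed its window. The transcript start in the deposited annotation, used for the summit positions further on, is another one for several genes, so that in Snrpa and Srsf1 the same peaks span that start. The peaks of Hnrnpa2b1, Srsf1, Prpf8 and Srsf3 overlapped their windows by 64, 42, 15 and 3 bp. Apart from Snrpa and Prpf38b, the region called lay mostly beyond the letters shown.

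A promoter peak was listed at 17 of the 82 protein-coding member genes in RefSeq, 20.7% (exact binomial 95% interval 12.6 to 31.1), against 4.73% of all 21900 protein-coding genes. A peak of any class was listed at 20 of 82, 24.4% (15.6 to 35.1), against 9.23% of all. At all of these peaks, as throughout the table, H3K27ac was lower in FA0. The promoter interval of the members lay above the share over all genes. Genes were not set apart by their activity in mESCs, so these shares do not compare the members with equally active genes. Among promoter peaks with a fold of at least 3, which kept 6 of the 17 member peaks but 51.5% of the 1181 of all protein-coding genes, the shares were 6 of 82 members, 7.32% (2.73 to 15.2), and 2.59% of all genes. The other 62 member genes had no peak under their own name. The binomial intervals here and below take genes, summits or windows as independent draws and hold no variation between libraries. Poisson intervals of pileups below cover counting error only. PCR reads without molecular identifiers are not independent molecules, so those Poisson intervals can be too narrow.

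The counts of listed genes by family were as follows. SR genes had a promoter peak in 4 of 11, 36.4% (10.9 to 69.2), hnRNP genes in 7 of 21, 33.3% (14.6 to 57.0), and snRNP genes and their partners in 6 of 50, 12.0% (4.53 to 24.3). The 3 intervals overlapped, and the differences between the families were not tested. Within the last family, 1 of 12 Snrp, 1 of 13 Lsm, 2 of 9 Sf3, 2 of 13 Prpf and 0 of 3 U2af genes had a promoter peak. The SR genes without any peak were Srsf2, Srsf4, Srsf6, Srsf7, Srsf9, Srsf11 and Srsf12. The hnRNP genes without one were Hnrnpa0, Hnrnpa1l2-ps2, Hnrnpab, Hnrnpd, Hnrnpdl, Hnrnpf, Hnrnph2, Hnrnph3, Hnrnpk, Hnrnpll and Hnrnpr. Among those absent in the last family were the genes of the core Sm ring, Snrpb, Snrpd1, Snrpd2, Snrpd3, Snrpe, Snrpf and Snrpg, the U1 gene Snrpc, and all 3 U2af genes, which recognise the 3′ splice site. Sf3b1, which clamps the branch point, was also absent.

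**Figure D1:**
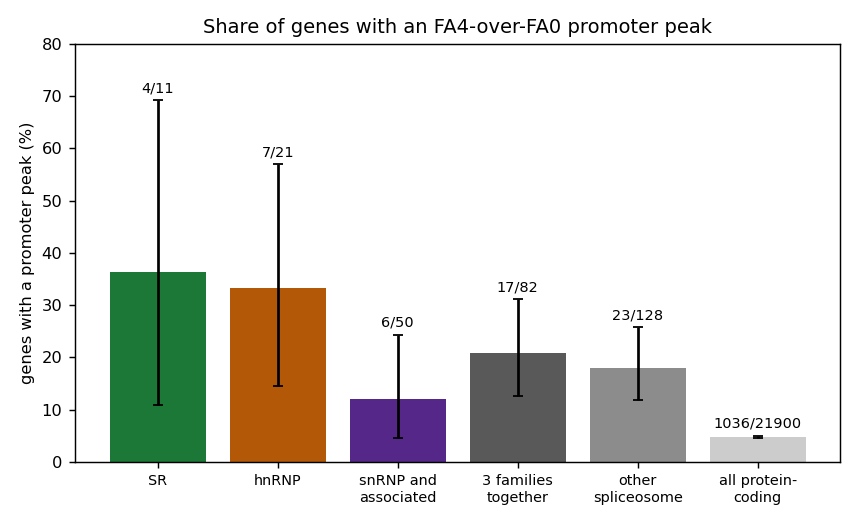
Share of protein-coding genes with a promoter H3K27ac peak (bars, percent on the y axis) for the families, all members, the other splicing genes and all protein-coding genes, with exact binomial 95% intervals as error bars. The share over all members was 20.7%, against 4.73% of all protein-coding genes, and the intervals of the 3 families overlap.

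All 4 SR protein peaks lay at promoters, with FA0 backgrounds between 22.2 and 30.8 and FA4 pileups between 75 and 104. Srsf1, the prototype SR protein, had an FA0 background of 30.8 and an FA4 pileup of 104 (exact Poisson 95% interval 85.0 to 126) at chromosome 11, 88047381 to 88048108, a fold of 3.30. Srsf5 had an FA0 background of 22.2 and an FA4 pileup of 92 (74.2 to 113) at chromosome 12, 80945576 to 80945913. Its fold of 4.01 was the highest of the 17 member promoter peaks, and its −log10 q of 22.5 was second to that of Snrpa. Srsf3, the smallest SR protein, had an FA0 background of 30.1 and an FA4 pileup of 90 (72.4 to 111) at chromosome 17, 29032707 to 29033160, a fold of 2.93. Srsf10, which represses splicing when dephosphorylated, had an FA0 background of 25.3 and an FA4 pileup of 75 (59.0 to 94.0) at chromosome 4, 135856698 to 135857158, a fold of 2.89. The intervals of the 4 pileups overlapped, and the differences among them were not tested.

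The 7 hnRNP promoter peaks were more spread, with FA0 backgrounds between 11.1 and 52.5 and FA4 pileups between 41 and 147. Hnrnpa2b1, which binds and transports RNA, had an FA0 background of 52.5 and an FA4 pileup of 147 (124 to 173) at chromosome 6, 51468864 to 51469859. Both values were the highest of all members, while its fold of 2.77 was below the member median. Hnrnpa1, a repressor of splice site use, had an FA0 background of 32.5 and an FA4 pileup of 77 (60.8 to 96.2) over the widest member peak, 1120 bp at chromosome 15, 103240467 to 103241586, a fold of 2.33. Hnrnph1, which binds runs of G, had an FA0 background of 11.1 and an FA4 pileup of 47 (34.5 to 62.5) at chromosome 11, 50378052 to 50378335. Its background was the lowest of the member promoter peaks, and its fold of 3.98 was close to that of Srsf5.

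Hnrnpc, which binds runs of U, had an FA0 background of 23.2 and the same FA4 pileup as Hnrnph1, 47, at chromosome 14, 52103566 to 52103965, a fold of 1.99. These genes thus had the same FA4 pileup and different folds. Hnrnpl, which binds CA repeats, had an FA0 background of 12.7 and an FA4 pileup of 41 at chromosome 7, 28808181 to 28808621, a fold of 3.06. Hnrnpu, a nuclear scaffold protein, had an FA0 background of 17.7 and an FA4 pileup of 44 at chromosome 1, 178334657 to 178335071, a fold of 2.40. Hnrnpa3, a relative of Hnrnpa1, had an FA0 background of 27.7 and an FA4 pileup of 50 (37.1 to 65.9) at chromosome 2, 75659854 to 75660561. Its fold of 1.78 was the lowest of all members and its −log10 q of 1.33 ranked 3776 of 4088 peaks, so this call was among the weakest in the table.

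Of the 6 promoter peaks in the snRNP family, that of Snrpa stood highest, with an FA0 background of 32.5 and an FA4 pileup of 117 (96.8 to 140) at chromosome 7, 27195884 to 27196137. Snrpa encodes a protein that binds a stem loop of U1 snRNA, and its −log10 q of 24.3 was the highest of the members and ranked 18 of 4088. Prpf8, the scaffold of the catalytic centre in the U5 snRNP, had an FA0 background of 24.6 and an FA4 pileup of 86 (68.8 to 106) at chromosome 11, 75486812 to 75487461, a fold of 3.40. Lsm4, a subunit of the ring on U6 snRNA and of the ring that acts in mRNA decay, had an FA0 background of 36.0 and an FA4 pileup of 75 (59.0 to 94.0) at chromosome 8, 70673423 to 70674021. Its FA0 background was the highest of this family and its fold of 2.05 the lowest.

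Sf3a1 and Sf3a2 encode subunits of SF3A, the part of the U2 snRNP that helps it bind the branch point. Sf3a2 had an FA0 background of 20.8 and an FA4 pileup of 60 (45.8 to 77.2) at chromosome 10, 80799009 to 80799388, a fold of 2.80. Sf3a1 had an FA0 background of 12.7 and an FA4 pileup of 34 (23.5 to 47.5) at chromosome 11, 4160432 to 4160773, a fold of 2.56. The Sf3a1 pileup was the lowest of the member promoter peaks. The third SF3A gene, Sf3a3, had no peak. Prpf38b, named for its likeness to a yeast factor of spliceosome activation, had an FA0 background of 16.5 and an FA4 pileup of 51 (38.0 to 67.1) at chromosome 3, 108911506 to 108912018, a fold of 2.96.

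**Figure D2:**
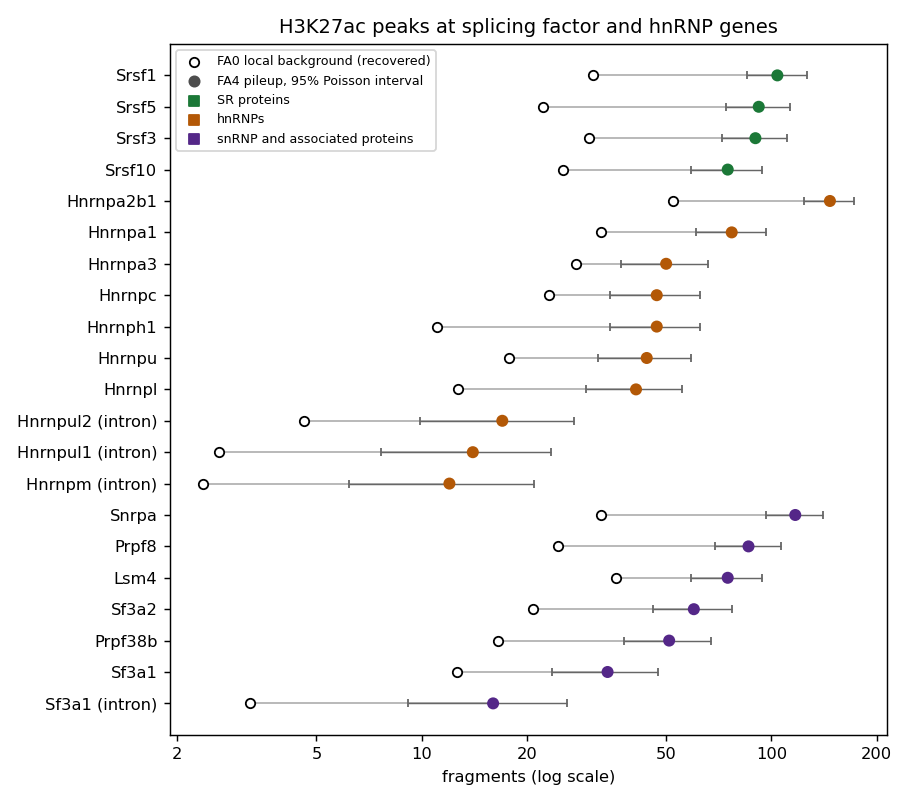
FA0 local background (open circles) and FA4 pileup (filled circles, with exact Poisson 95% intervals) for the 21 member peaks, by family. The log axis is in fragments, a count for the pileup but an estimate, not a raw count, for the background. The promoter peaks run between FA0 backgrounds of 11.1 and 52.5 and FA4 pileups of 34 and 147, while the 4 intronic peaks lie at FA4 pileups of 12 to 17.

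The 4 peaks outside promoters lay in introns and were weak. Sf3a1 had a further peak in intron 2 of 15, with an FA0 background of 3.24 and an FA4 pileup of 16 at chromosome 11, 4166071 to 4166489, a fold of 4.01. Hnrnpul1 had one in intron 7 of 14, with an FA0 background of 2.63 and an FA4 pileup of 14 at chromosome 7, 25737385 to 25737664, a fold of 4.13. Hnrnpul2, like Hnrnpul1 a relative of Hnrnpu, had one in intron 10 of 13, with an FA0 background of 4.61 and an FA4 pileup of 17 at chromosome 19, 8827305 to 8827558, a fold of 3.21. Hnrnpm, which takes part in splice site choice, had one in intron 12 of 15, with an FA0 background of 2.36 and an FA4 pileup of 12 at chromosome 17, 33656250 to 33656537, a fold of 3.86. The median fold of these peaks was 3.94, above that of the member promoter peaks, although the median FA4 pileup was 15. The 670 intronic peaks of protein-coding genes had much the same fold, with a median of 3.86 at a median pileup of 11. A peak of low pileup is called only where its fold is high, so these folds cannot be set against those of the promoter peaks.

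Set against all protein-coding promoter peaks within 1 kb of a start, 854 peaks at 780 genes, the member promoter peaks differed more in level than in fold. The median FA0 background was 24.6 in the 17 member peaks and 17.4 in all, and the median FA4 pileup was 75 in the members and 46 in all. The median fold was 2.89 in the members (quartiles 2.40 and 3.30) and 2.80 in all. Among the 572 peaks of all genes with pileups in the members' range of 34 to 147, the median fold was 2.53 and the median FA0 background 23.2. The median member fold lay near the middle of all 854 peaks, but close to the upper quartile, 2.98, of those in this pileup range. Those peaks were not matched to the members within the range. Their median FA4 pileup was 58.5, below the 75 of the members, and at a given background the fold rises with the pileup. Of the members, Hnrnpa2b1 had a higher pileup than 99.3% of the 854 peaks, Snrpa than 97.0% and Srsf1 than 95.4%, whereas Sf3a1 exceeded 32.4%. By family, the median FA4 pileup was 91 for SR genes, 67.5 for snRNP genes and 47 for hnRNP genes, with median folds of 3.12, 2.88 and 2.40. With 4 to 7 peaks a family these medians are a description only.

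**Figure D3:**
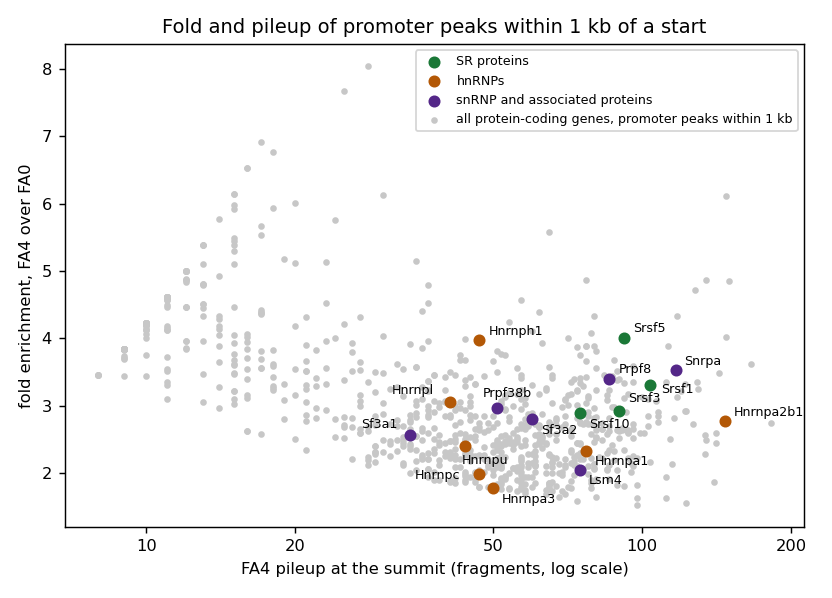
Fold enrichment, FA4 over FA0 (y axis), against the FA4 pileup at the summit in fragments (x axis, log scale) for promoter peaks within 1 kb of a start. Grey points are the 854 peaks of all protein-coding genes and coloured points the 17 member peaks, which lie between pileups of 34 and 147 and folds of 1.78 and 4.01.

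The summits of the members lay mostly just downstream of the start site. Taken from the start of the transcript in the deposited annotation, 15 of 17 summits were downstream, 88.2% (63.6 to 98.5), against 64.6% (61.3 to 67.8) of all 854 peaks. Between 50 and 500 bp downstream lay 13 of the 17 member summits, 76.5% (50.1 to 93.2), against 45.1% (41.7 to 48.5) of all. The first pair of intervals overlapped, and neither difference was tested. The nearest summit was that of Hnrnpl at 59 bp and the farthest that of Hnrnpa3 at 1058 bp. The exceptions were Hnrnph1 at −141 bp and Hnrnpu at −485 bp, both upstream. The side depends on the start used, which was examined after the data were seen. A further choice was the nearest RefSeq start with a promoter window, which leaves out starts that have no window. By it 13 of the 16 member summits with such a start lay downstream, 81.2% (54.4 to 96.0), against 75.1% (71.7 to 78.3) of 695 peaks of all genes. By that start Snrpa lay at −200 bp, Hnrnph1 at −86 bp and Hnrnpl at −2290 bp, while Hnrnpu lay 2784 bp downstream. The 5′ end of the Hnrnpl gene in RefSeq, 54 bp before its summit, has no window. Hnrnpl is thus upstream only because that start was left out. From the outermost 5′ end of the RefSeq gene all 17 lay downstream, which any summit inside a gene must.

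**Figure D4:**
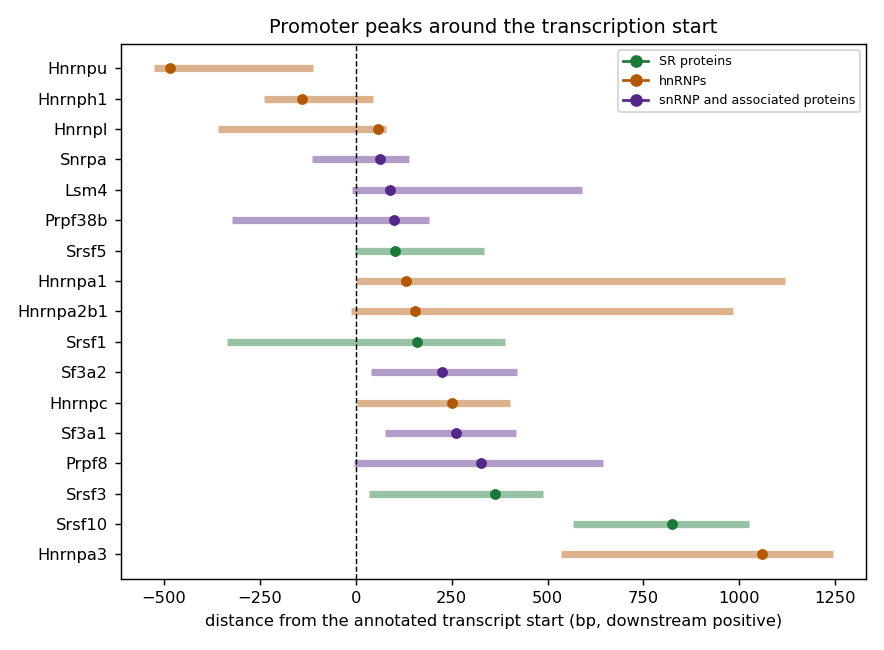
Position of the 17 member promoter peaks (bars) and their summits (points) relative to the start site of the annotated transcript in bp, positive downstream. In 15 of the 17 the summit lies downstream, and Hnrnph1 and Hnrnpu are the exceptions at −141 and −485 bp.

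Several splicing factor genes shared a promoter region with a neighbour. A RefSeq start on the opposite strand within 1 kb upstream was found at 21 of the 70 member genes with a promoter window, 30.0% (19.6 to 42.1). The share was 13.2% of 17492 protein-coding genes, and opposite starts downstream were not counted. It was present at 7 of 16 members with a promoter peak, 43.8% (19.8 to 70.1), against 20.4% of all protein-coding genes with a promoter peak, which lies within that interval. It was present at 14 of 54 members without one. The pairs with a peak were Snrpa with BC024978 at 21 bp, Srsf3 with Gm16196 at 37 bp, Sf3a1 with Ccdc157 at 61 bp, Sf3a2 with Plekhj1 at 109 bp, Hnrnpa3 with Gm39859 at 322 bp, Hnrnpa1 with Cbx5 at 545 bp and Hnrnpa2b1 with Cbx3 at 722 bp. Cbx3 and Cbx5 encode HP1 proteins, which bind methylated histone H3. A single peak at such a promoter cannot be assigned to either gene of the pair, and the table lists each peak under a single gene. At Sf3a2 and Plekhj1 a separate peak was listed under each gene. The Plekhj1 peak, at chromosome 10, 80798237 to 80798639, lay 96 bp from the 5′ end of Sf3a2. It had an FA0 background of 17.4 and an FA4 pileup of 65, a fold of 3.58.

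Some members were also touched by peaks that the table lists under another gene, which was examined after the data were seen. A peak listed under Cog4 covered the 5′ end of Sf3b3, a subunit of the U2 complex SF3B, with an FA0 background of 53.7 and an FA4 pileup of 141 at chromosome 8, 110846126 to 110846936. A peak listed under Psenen lay 40 bp from the 5′ end of U2af1l4, a relative of U2af1, with an FA0 background of 26.5 and an FA4 pileup of 118 at chromosome 7, 30563380 to 30563658. Both pileups lay within the range of the top members, and the fold of the Psenen peak, 4.33, was above that of every member promoter peak. A weaker peak listed under an antisense gene, Gm17092, lay 1235 bp from the 5′ end of Hnrnpd, with an FA0 background of 26.3 and an FA4 pileup of 55. With peaks of any name that overlapped the gene body counted, 23 of 82 member genes were reached, 28.0% (18.7 to 39.1), against 11.4% of all protein-coding genes by the same rule. Within 3 kb of the gene body the count was 25 of 82, 30.5% (20.8 to 41.6), against 12.7% of all.

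The promoter windows of the members were rich in CpG whether or not a peak was listed. RefSeq windows were found for 70 of the 82 member genes, 93 windows in all, and windows of 1 gene can overlap. The median GC content was 60.3% in the member windows, against 56.3% in 21255 windows of all protein-coding genes, and the median number of CpG per window was 25 in the members and 13 in all. In members with a promoter peak the medians were 60.5% GC and 24 CpG. All protein-coding windows of genes with a promoter peak had medians of 60.7% GC and 22 CpG, so the members with a peak were close to other genes with a peak.

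Of the motifs searched, the GC box was found in 66.7% of member windows, against 46.2% of all. The CCAAT box was found in 47.3% against 38.2%, the E box in 11.8% against 7.84%, the ETS motif in 15.1% against 5.15%, the Nrf1 motif in 7.53% against 3.52% and the Yy1 motif in 4.30% against 1.83%. The TATA box was the exception, at 8.60% of member windows and 12.6% of all. In the 22 windows of members with a promoter peak, the CCAAT box was found in 63.6% (40.7 to 82.8), against 40.4% of 1107 windows of all genes with a promoter peak. These 22 windows come from 16 genes and can overlap, so an interval that takes them as independent can be too narrow. Its lower limit is already close to 40.4%, and the difference was not tested. The ETS motif was found in 2 of those 22 member windows, 9.09% (1.12 to 29.2), against 8.22%. That interval also holds the 15.1% of all member windows, so no difference in ETS matches between members with and without a peak could be read from it. A match is a description of the letters and not a bound site.

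Further splicing genes were examined in a list of 128 that the rule did not take, such as helicases, exon junction proteins and other RNA-binding regulators. Neither the rule nor this list is complete. The snRNP protein genes Snrnp200, Snrnp35 and Snrnp40 are in neither and had promoter peaks, a fact noted after their values were seen, with FA0 backgrounds of 3.10, 43.9 and 22.2 and FA4 pileups of 14, 79 and 55. They are named because they had a peak. Snrnp genes without a peak were not counted, so these names give no share. A promoter peak was listed at 23 of the 128, 18.0% (11.7 to 25.7), close to the 20.7% of the members and also against 4.73% of all protein-coding genes. The 29 promoter peaks had a median FA0 background of 18.9, a median FA4 pileup of 51 and a median fold of 2.59. The highest by −log10 q was Tardbp, an RNA-binding protein that represses cryptic exons, with an FA0 background of 23.4 and an FA4 pileup of 148, a fold of 6.11. Ewsr1, of the FET family, followed with an FA0 background of 39.4 and an FA4 pileup of 130, a fold of 3.24. The Tardbp fold was higher than that of any member, while the FA4 pileup was within 1 fragment of that of Hnrnpa2b1.

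Among the helicases, Ddx23, of the U5 snRNP, had an FA0 background of 19.8 and an FA4 pileup of 80. Ddx5 had an FA0 background of 37.5 and an FA4 pileup of 99, with a fold of 2.59, below the 3.89 of Ddx23. Dhx16, which drives the first catalytic step, had an FA0 background of 2.20 and an FA4 pileup of 18, with a fold of 5.93. Rnps1, of the exon junction complex, had an FA0 background of 21.7 and an FA4 pileup of 75. Rnpc3, a protein of the minor spliceosome, had an FA0 background of 18.9 and an FA4 pileup of 62. Smndc1, which binds the spliceosome through a Tudor domain, had an FA0 background of 16.9 and an FA4 pileup of 71, with a fold of 4.01, close to that of Srsf5. Rbm25, an RNA-binding regulator, had an FA0 background of 23.9 and an FA4 pileup of 74, with a fold of 3.02. Tial1, which binds U-rich RNA, had an FA0 background of 12.7 and an FA4 pileup of 51, a fold of 3.81. Apart from Dhx16 these peaks lay in the same range of FA4 pileup as the members.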

How the data were processed

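H3K27ac ChIP-seq was analysed from 2 peak tables deposited for Sv129 mESCs, made from 1 IP and 1 input library each for FA0 and FA4. Per the submitters' processing notes, bcl2fastq 2.17, Bowtie 1.1.2 and MACS2 2.1.0 were used with mm10. The settings of these tools, and the name of the annotation tool, are not given in the sources used here. In the tables, the deposited pileup signal counts IP fragments at the summit and was not scaled. The −log10 of the q-value and p-value were deposited as MACS2 gives them. The deposited fold enrichment ratio was read as pileup plus 1 over local background plus 1, and the FA0 background was computed from it. At that background a Poisson tail gave the deposited −log10 p within 0.001 at 1538 of 1538 promoter peaks. Widths and distances were deposited in bp. All 1538 rows of the promoter table were identical in the full table.

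Peaks were taken by the authors' annotation, in which promoters reach 3 kb. Of 2044 protein-coding symbols, 2022 matched RefSeq. Shares have exact binomial and pileups exact Poisson intervals at the 95% level, and the procedure was tested on simulated data. No sample-level test was possible. Every member gene with a peak was named, with full values for its promoter peak, and up to 10 of the other splicing genes by −log10 q. Members and lists were chosen with earlier results of these data known. Counts were repeated at a minimum −log10 q of 2 or of 3, at a minimum fold of 3, without chromosome 8, with promoters to 1 kb, with 1 peak per gene, and from peak midpoints in place of summits. The 5′ end of the RefSeq gene, the nearest RefSeq start with a promoter window and overlap with the gene body were added after seeing the data. No file of the input libraries was used here. Scripts ran in Python 3.11.15 with scipy 1.17.1, numpy 2.4.6 and pandas 2.3.3, and plots were drawn in matplotlib 3.10.9.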

Additional observations from a re-analysis of the deposited data

How the results depend on the processing

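A fold of at least 3 moved most counts: 6 member genes then had a promoter peak and 10 a peak of any class, with 2 SR, 2 hnRNP and 2 snRNP genes, a median member fold of 3.46, and 11 of the other splicing genes. The share over all protein-coding genes at that fold was 2.59%. With a minimum −log10 q of 3, 14 of the other splicing genes had a promoter peak. The share of member summits downstream of the start was 81.2% from the nearest RefSeq start with a promoter window. From the outermost 5′ end of the RefSeq gene the share was 100%, which is nearly fixed by that choice. Of 51 alternative values, 9 moved. The other 42, with the 81.2% among them, stayed within 1.5 times the count or within the interval of the value. Several of these could not move. All 17 member promoter peaks lay within 1 kb of a start and at different genes, so promoters to 1 kb or 1 peak per gene returned the same member values. Lsm4 had the only member peak on chromosome 8, so its exclusion could not change the SR or hnRNP counts. A minimum −log10 q of 2 or 3 left 16 or 14 member genes with a promoter peak, and exclusion of chromosome 8 left 16. No paired analysis was possible because each condition had 1 IP library, and for the same reason no replicate could be left out. At low pileups only high folds are called, which limits what the fold shows at intronic peaks.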

Other observations

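The table also held 90 peaks nearest to small nuclear RNA genes, the RNA partners of the snRNP proteins, of which 12 were promoter peaks. Only 2 of the 90 had an FA4 pileup of 100 or more. Gm24950 had an FA0 background of 61.3 and an FA4 pileup of 265, the highest in the table, and Rnu2-10, a U2 gene, had an FA0 background of 34.6 and an FA4 pileup of 144. The others had a median pileup of 11 and reached at most 51. These 2 peaks lay 16.6 kb apart on chromosome 11. Repeated snRNA copies can share reads, so these values are uncertain.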
